A study of Mus musculus with 6 samples.

Results

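The genes described here are 33 genes of oxygen sensing and the response to hypoxia, measured by RNA sequencing in C2C12 cells, mouse myoblasts that can form myotubes in culture. They were chosen by name: 8 sensors, meaning subunits of the hypoxia-inducible factor (HIF) and the proteins that control it, and 25 HIF target genes outside core glycolysis. All 33 were found among the 55414 gene identifiers of the count table, and all 33 had enough counts to be tested. Wild-type cells were transfected with a negative-control siRNA (siControl, 3 libraries) or with an siRNA against Usf2 (siUsf2, 3 libraries), and both groups went through the same lipofectamine procedure in growth medium with serum. The labels mention no low-oxygen exposure, no time point and no separate cultures, so the p-values reflect variation among these libraries only, and that variation may be technical. The comparison asks which of these genes differ when Usf2, a transcription factor that binds E-box sequences, is knocked down.

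HIF is a pair of proteins, an oxygen-labile alpha subunit (Hif1a or Epas1) and a stable beta subunit (Arnt). In the presence of oxygen the prolyl hydroxylases Egln1, Egln2 and Egln3 mark the alpha subunit for recognition by Vhl and destruction, while Hif1an hydroxylates an asparagine and blocks coactivator binding. When oxygen is short the alpha subunit persists, pairs with Arnt and binds hypoxia response elements near genes of angiogenesis, glucose use and mitochondrial turnover. Most of this control acts on the protein, which was not measured here.

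Total counts were 3414565 for the library labelled siUsf2 3 and 14790997 to 17715250 for the other 5. That library stands apart: pseudogenes took 0.974% of its counts against 14.0% to 15.3% in the others, and it detected 17404 genes against 23515 to 24501. The Usf2 level also went against its label, with 30.8 CPM there (reads scaled to the same total in every library), 23.0 to 31.2 CPM in siControl and 15.3 to 17.1 CPM in siUsf2 1 and 2. It is therefore shown apart, and the first comparison sets siUsf2 1 and 2 against siControl (5 libraries), where Usf2 fell by 0.74 in log2 units (SE 0.14, edgeR adjusted p = 6.43e-04). The 8 myoblast markers had summed levels of 2756 to 3324 CPM (siControl), 2393 to 2470 CPM (siUsf2 1 and 2) and 3192 CPM (the library labelled siUsf2 3). In the 5 libraries 4 of them fell, 1 rose (Myf5) and 3 did not pass. The 6 markers of muscle differentiation, among them Myog and Acta1, summed to 3620 to 3847 CPM, 801 to 886 CPM and 1634 CPM, and all 6 fell in the 5 libraries. In the library labelled siUsf2 3, however, Tnnt3 was at 92.8 CPM, above its siControl range of 42.9 to 47.9 CPM. The part of these markers in the results was not tested. Endothelial, leukocyte and adipocyte markers summed to at most 4.69 CPM in any library, with Tie1, Adgre1, Itgam and Lep at 0 in all 6. The 5 fibroblast markers summed to 417 to 434 CPM, 493 to 500 CPM and 1057 CPM in the same order, and Col1a1 alone gave 904 CPM of the last value. Of the 4 fibroblast markers tested in the 5 libraries, Col1a1 rose (log2 fold change 0.33) and 3 did not pass. In bulk RNA, fewer cells of a type and less RNA per cell cannot be told apart.

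The binding sequences of the knocked-down factor and of HIF overlap. The canonical E-box is CACGTG, and the core of the hypoxia response element is ACGTG or GCGTG, so that each CACGTG also holds ACGTG on both strands. Promoter windows of 250 bases before to 50 after a RefSeq start (GRCm38.p6, the assembly also called mm10) were found for 27 of the 33 members. No window was used for Epas1, Ndrg1, Bnip3l, Stc1, Kdm4b and Angptl4. Both strands were searched for exact matches. CACGTG was present in at least 1 window of 5 of the 27 members (18.5%), against 8.09% of all 27025 genes with a window. Some genes have several windows, and per window the shares were 12.8% of 39 against 7.15% of 32851. All genes with a window were counted, whether or not they had enough counts to be tested here. Per gene, ACGTG outside a CACGTG was present in 12 members (44.4%, against 15.3%), and either core, E-boxes included, in 21 (77.8%, against 46.7%). The members with a CACGTG were Hif1a, Egln2, Bnip3, Pfkfb3 and Ak4. These and the promoter of Slc16a3, with a pair of ACGTG, are shown, and the RNA of each gene differed between siUsf2 1 and 2 and siControl. The promoter of Fam162a, which also differed and holds an ACGTG 81 bases before the start, is not shown. The stretches of Ak4, Egln2, Slc16a3 and the upstream start of Pfkfb3 overlap an exon of their own gene. Capitals mark the motifs, and a GCGTG of the other strand appears as CACGC.
Hif1a, chr12:73907720-73907813, plus strand, from 147 bases before the start: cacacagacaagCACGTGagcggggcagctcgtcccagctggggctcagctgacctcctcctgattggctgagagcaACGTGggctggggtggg
Bnip3, chr7:138909525-138909635, minus strand, from 129 bases before the start: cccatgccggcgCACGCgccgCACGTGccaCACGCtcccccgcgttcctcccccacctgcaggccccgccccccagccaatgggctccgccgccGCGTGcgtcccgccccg
Pfkfb3, chr2:11502126-11502224, minus strand, from 134 bases before its downstream start: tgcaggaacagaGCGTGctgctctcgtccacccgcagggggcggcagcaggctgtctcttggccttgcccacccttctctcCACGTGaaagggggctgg
Pfkfb3, chr2:11553973-11554001, minus strand, from 72 bases before its upstream start: ctccgcgccgtgACGTGccaagctgtgac
Ak4, chr4:101419477-101419506, plus strand, from 226 bases before its most downstream start: tcccactctgccCACGTGcggggaccggca
Egln2, chr7:27166789-27166818, minus strand, across the start: ccgggccgctgtCACGTGcccagcgggcga
Slc16a3, chr11:120949034-120949063, plus strand, from 33 bases before the start: gcggtgACGTGcgcgggggACGTGccgcgc

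In Bnip3 the E-box lay 108 bases before the start, between a pair of GCGTG cores on the other strand. In Hif1a an E-box lay 135 bases and an ACGTG 70 bases before the start, and this ACGTG reads along the gene. The E-box of Egln2 began 4 bases before the start and ran across it. Among the 27 members with a window, CACGTG was found in 4 of the 10 that rose in the 5 libraries, in 1 of the 3 that fell and in 0 of the 14 that did not pass. Either core was found in 8, 2 and 11 of these. These are counts of letters in short windows, with no test, and they say nothing of whether either factor binds there.

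**Figure D1:**
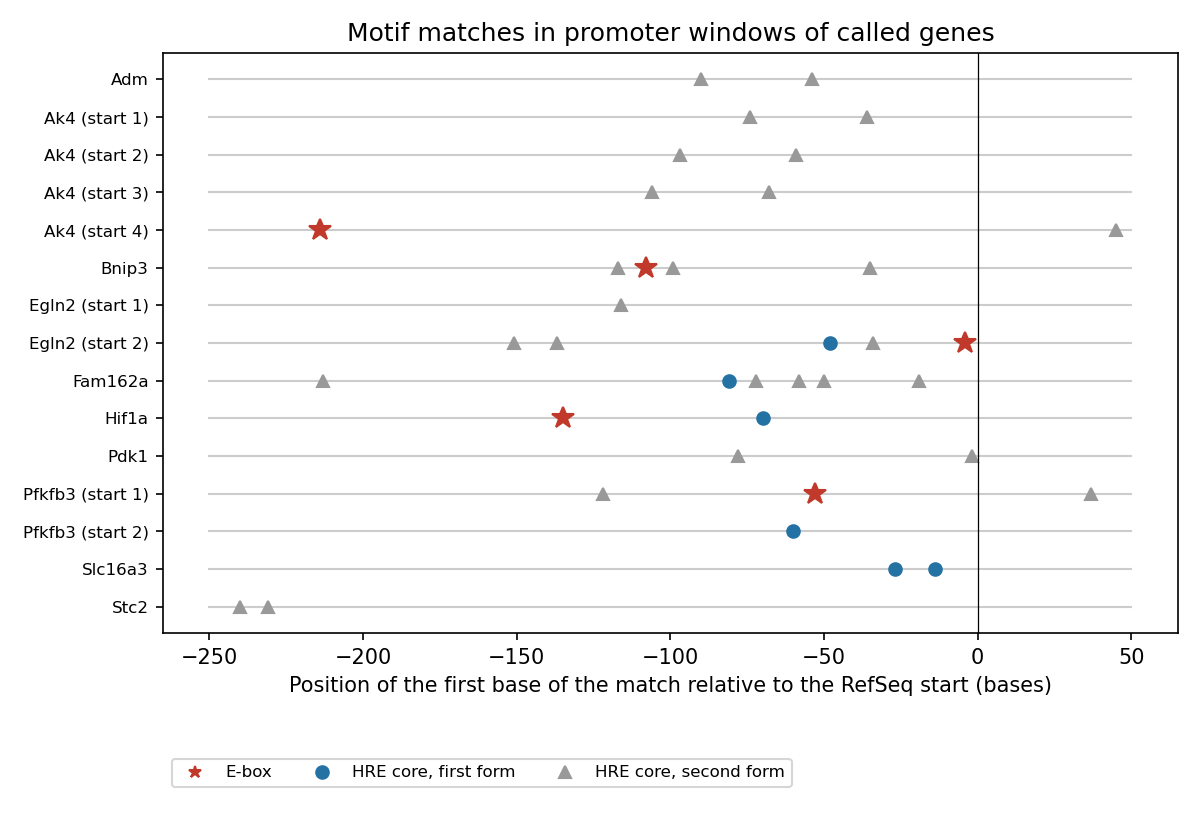
Position of the first base of each motif match, in bases relative to the RefSeq start, for every promoter window with a match among members that differed in the 5 libraries. Stars are CACGTG (E-box), circles ACGTG outside a CACGTG and triangles GCGTG, on either strand, and genes with several starts have a line per start. The 5 stars lie 214 (Ak4), 135 (Hif1a), 108 (Bnip3), 53 (Pfkfb3) and 4 (Egln2) bases before the start.

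In the 5 libraries 12 of the 25 target genes rose, 2 fell and 11 missed the threshold, with a median log2 fold change of 0.42 against -0.01 over all 17217 genes tested. The share of all genes that rose was 4.97%, and 6.40% fell, or 855 and 1102 genes (1124 and 900 with upper-quartile normalization). Without siUsf2 1, which leaves 1 siUsf2 library, fewer targets were called and the median target was at 0.45. The 12 were Ndrg1, Apln, Adm, Stc1, Pfkfb3, Eno2, Pdk1, Slc16a3, Ak4, Bnip3, Bnip3l and Fam162a, and the 2 were Gys1 and Stc2. Of the 8 sensors, Hif1a rose, Egln2 fell and 6 did not pass, with a median of 0.06. The genes and their grouping by role were chosen with earlier results of these data known, so the counts are descriptive. Relative to the siControl mean, the median target stood at 0.42 in siUsf2 1, 0.45 in siUsf2 2 and 0.54 in the library labelled siUsf2 3 (log2), and at 0.06, -0.01 and -0.05 in siControl 1 to 3. The median over all genes lay between -0.02 and 0.01 in all 6 libraries.

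**Figure D2:**
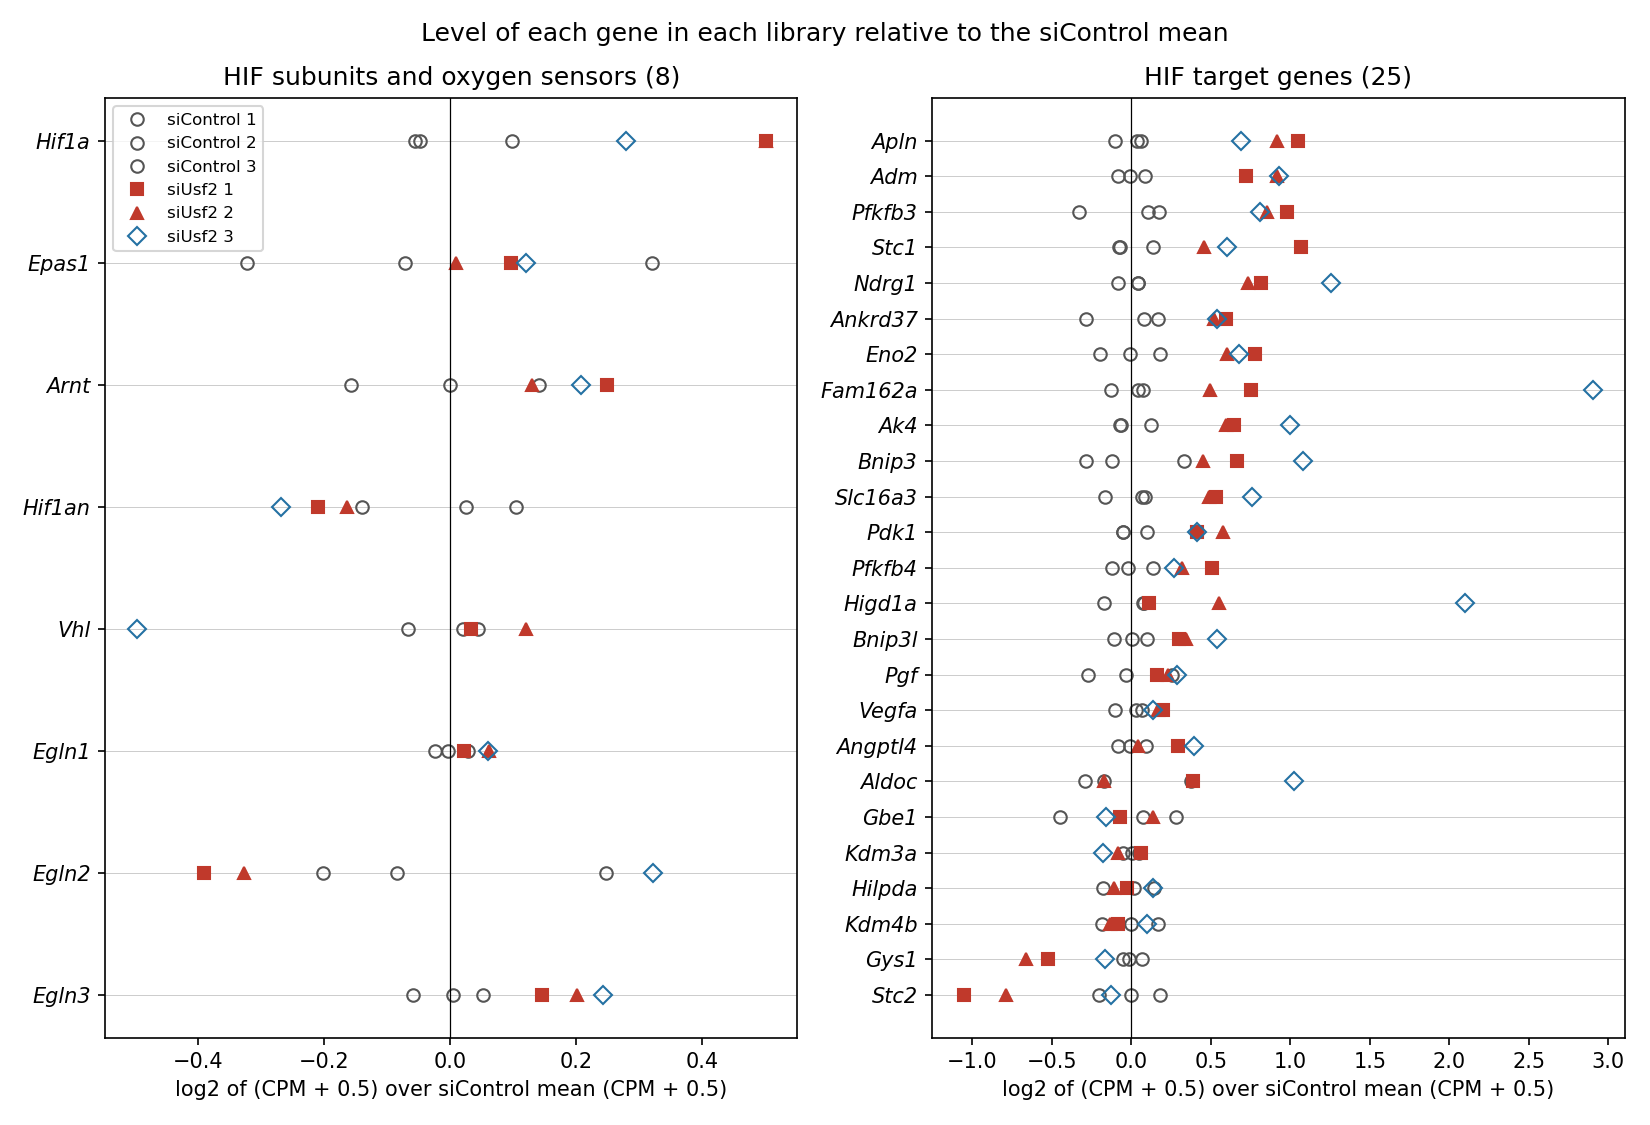
Level of each gene in each library, as log2 of CPM + 0.5 over the siControl mean, for the 8 sensors on the left and the 25 targets on the right (the horizontal scales differ). Open circles are siControl, filled red symbols siUsf2 1 and 2, and open blue diamonds the library labelled siUsf2 3. Most target symbols of siUsf2 lie to the right of the siControl circles, with Gys1 and Stc2 to the left in siUsf2 1 and 2.

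Among the HIF subunits, Hif1a (ENSMUSG00000021109), the main oxygen-labile subunit, was the one that rose. It was at 328, 330 and 365 CPM in siControl 1 to 3, at 483 CPM in each of siUsf2 1 and 2, and at 414 CPM in the library labelled siUsf2 3. Every siUsf2 library lay above every siControl library. It rose 1.40-fold in the 5 libraries, by 0.49 in log2 (SE 0.08, edgeR adjusted p = 1.55e-04). Epas1, the alternative alpha subunit, was scarce, with 3.11, 2.25 and 1.81 CPM in siControl, 2.59 and 2.41 CPM in siUsf2 1 and 2 and 2.64 CPM in the library labelled siUsf2 3. Its groups overlapped, and the interval of its log2 fold change was wide (95% interval -0.64 to 0.77). Arnt, the shared beta subunit, was at 116, 104 and 128 CPM in siControl, 138 and 127 CPM in siUsf2 1 and 2 and 134 CPM in the library labelled siUsf2 3. It did not pass (log2 difference 0.18, SE 0.09, edgeR adjusted p = 0.256), and it passed without siControl 3 (0.26, adjusted p = 0.0189). Per exon length, Hif1a made up 99.3% ± 0.237 of the summed level of Hif1a and Epas1 in siControl (SD, n = 3) and 99.5% ± 0.0280 in siUsf2 1 and 2 (SD, n = 2).

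The prolyl hydroxylases did not move together. Egln2 was at 43.4, 54.8 and 40.0 CPM in siControl and at 35.0 and 36.6 CPM in siUsf2 1 and 2, both under the lowest siControl value. On the other side, at 57.7 CPM, the library labelled siUsf2 3 exceeded all of siControl. Egln2 fell by 0.37 in the 5 libraries (SE 0.12, edgeR adjusted p = 0.0417), a call that ended with upper-quartile normalization, DESeq2 and limma-voom (adjusted p = 0.0601 to 0.0784) and without any one of siControl 1, siControl 2, siUsf2 1 or siUsf2 2 (adjusted p = 0.0865, 0.267, 0.25 and 0.0854). Egln3, itself induced by HIF, was at 111, 120 and 116 CPM in siControl, 128 and 133 CPM in siUsf2 1 and 2 and 137 CPM in the library labelled siUsf2 3. All 3 siUsf2 values lay above siControl, but the difference did not pass (log2 fold change 0.16, 95% interval -0.02 to 0.34, edgeR adjusted p = 0.257). Egln1, the main hydroxylase of HIF in most cells, spanned 70.7 to 73.3 CPM in siControl, with 73.0 and 75.1 CPM in siUsf2 1 and 2 and 75.0 CPM in the library labelled siUsf2 3 (95% interval of the log2 fold change -0.16 to 0.22). Per exon length Egln3 was the most abundant of the family in every library, with 54.4% ± 1.53 of its summed level in siControl, 59.4% ± 0.0644 in siUsf2 1 and 2, and 55.3% for the library labelled siUsf2 3. Egln2 held 20.5% ± 2.35, 15.5% ± 0.0858 and 22.2%.

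Neither of the other sensors passed. Hif1an, the asparaginyl hydroxylase, was at 101, 85.2 and 95.6 CPM in siControl, 81.1 and 83.8 CPM in siUsf2 1 and 2 and 77.9 CPM in the library labelled siUsf2 3. These values did not overlap, and the log2 fold change came to -0.20 (SE 0.10; edgeR adjusted p = 0.186). Vhl, the substrate receptor of the ubiquitin ligase, was at 49.3, 48.5 and 45.6 CPM in siControl and 48.9 and 52.0 CPM in siUsf2 1 and 2 (95% interval of the log2 fold change -0.14 to 0.27). Only the library labelled siUsf2 3 differed there, with 33.7 CPM (95% Poisson interval 27.8 to 40.4).

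Among the 7 secreted factors, 3 rose, 1 fell and 3 did not pass, where 4.97% of all genes tested rose and 6.4% fell. Apln, the precursor of the vascular peptide apelin (ENSMUSG00000037010), was at 19.9, 18.1 and 20.3 CPM in siControl, 40.7 and 37.2 CPM in siUsf2 1 and 2 and 31.6 CPM in the library labelled siUsf2 3. Its groups were far apart, and it rose 1.99-fold in the 5 libraries, by 0.99 in log2 (SE 0.12, edgeR adjusted p = 5.22e-07). Adm, the vasodilator peptide adrenomedullin, was low, at 2.23, 2.06 and 1.92 CPM in siControl, 3.73 and 4.35 CPM in siUsf2 1 and 2 and 4.39 CPM in the library labelled siUsf2 3. Its increase of 0.95 (SE 0.31, edgeR adjusted p = 0.0398) did not pass with DESeq2 (adjusted p = 0.0684) or without siControl 1, siControl 2, siUsf2 1 or siUsf2 2 (adjusted p = 0.0864, 0.1, 0.115 and 0.269).

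The stanniocalcins, a pair of secreted glycoproteins that act on calcium and phosphate handling, moved in opposite directions. Stc1 was at 20.0, 17.2 and 17.3 CPM in siControl, 38.6 and 25.1 CPM in siUsf2 1 and 2 and 27.8 CPM in the library labelled siUsf2 3. It rose by 0.80 (SE 0.15, edgeR adjusted p = 6.35e-04), with siUsf2 1 well above the others, and without siUsf2 1 the value was 0.47 (adjusted p = 0.14). Stc2 (ENSMUSG00000020303) was at 10.2, 11.8 and 13.5 CPM in siControl, 5.44 and 6.63 CPM in siUsf2 1 and 2 and 10.8 CPM in the library labelled siUsf2 3, which lay within the siControl range. It fell by 0.99 in the 5 libraries (SE 0.20, edgeR adjusted p = 9.57e-04). Per exon length, Stc1 held 65.4% ± 4.86 of the pair in siControl (SD, n = 3), 86.1% ± 5.23 in siUsf2 1 and 2 (SD, n = 2) and 76.0% for the library labelled siUsf2 3.

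Vegfa, the endothelial growth factor and the most abundant target, was at 405, 396 and 361 CPM in siControl, 444 and 435 CPM in siUsf2 1 and 2 and 426 CPM in the library labelled siUsf2 3. The values did not overlap, but the step was small and did not pass (log2 difference 0.17, SE 0.08, edgeR adjusted p = 0.211). Angptl4, an inhibitor of lipoprotein lipase, was at 65.9, 61.5 and 58.3 CPM in siControl, 75.9 and 63.8 CPM in siUsf2 1 and 2 and 81.4 CPM in the library labelled siUsf2 3, and siUsf2 2 fell within the siControl range. It and the growth factor Pgf did not pass, at log2 fold changes of 0.16 (95% interval -0.04 to 0.37) and 0.19 (-0.07 to 0.44).

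Of the 9 genes of sugar and energy metabolism, 5 rose, 1 fell and 3 did not pass. The shares over all genes tested were 4.97% higher and 6.4% lower. Pfkfb3, whose product makes the allosteric activator of phosphofructokinase, was at 14.7, 10.2 and 14.0 CPM in siControl, 26.0 and 23.8 CPM in siUsf2 1 and 2 and 23.1 CPM in the library labelled siUsf2 3. It rose by 0.93 (SE 0.15, edgeR adjusted p = 7.95e-05), with no overlap between groups. Its relative Pfkfb4 was at 14.1, 11.7 and 12.6 CPM against 18.4 and 16.1 CPM and 15.5 CPM, and did not pass (log2 difference 0.42, SE 0.15, edgeR adjusted p = 0.0784). Per exon length the share of Pfkfb3 in this pair was 39.3% ± 2.94 in siControl, 48.2% ± 0.699 in siUsf2 1 and 2, and 49.0% for the library labelled siUsf2 3.

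Pdk1, the kinase that keeps pyruvate out of the citrate cycle, was at 81.9, 90.7 and 81.9 CPM in siControl, 113 and 127 CPM in siUsf2 1 and 2 and 113 CPM in the library labelled siUsf2 3. It rose by 0.49 (SE 0.09, edgeR adjusted p = 4.03e-04). Slc16a3, the lactate exporter of glycolytic muscle, was at 56.0, 56.6 and 47.6 CPM in siControl, 77.4 and 75.0 CPM in siUsf2 1 and 2 and 90.8 CPM in the library labelled siUsf2 3. Its increase was 0.50 (SE 0.10, edgeR adjusted p = 7.13e-04), and for both genes every siUsf2 library stood above every siControl library.

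Eno2, the enolase isozyme best known from neurons, was at 43.4, 38.0 and 33.2 CPM in siControl, 66.0 and 58.3 CPM in siUsf2 1 and 2 and 61.5 CPM in the library labelled siUsf2 3 (log2 difference 0.69, SE 0.11, edgeR adjusted p = 4.99e-05). Ak4, a mitochondrial adenylate kinase, was at 9.40, 8.18 and 8.13 CPM against 13.7 and 13.2 CPM and 17.6 CPM. Both rose without overlap, Ak4 by 0.64 (SE 0.17, edgeR adjusted p = 0.0149), and the call of Ak4 ended without siControl 2, siUsf2 1 or siUsf2 2 (adjusted p = 0.0579, 0.119 and 0.0766).

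Gys1, the muscle glycogen synthase (ENSMUSG00000003865), was at 103, 97.3 and 95.1 CPM in siControl, 68.2 and 61.9 CPM in siUsf2 1 and 2 and 87.6 CPM in the library labelled siUsf2 3. All 3 siUsf2 values were below siControl, and Gys1 fell by 0.61 (SE 0.09, edgeR adjusted p = 2.98e-05). Gbe1, the glycogen branching enzyme, overlapped between groups (log2 fold change 0.02, 95% interval -0.42 to 0.46). Aldoc, an aldolase isozyme of brain, was near the detection limit at 0.879 to 1.69 CPM in siControl, and did not pass (95% interval -0.84 to 1.16).

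Of the 4 members grouped as mitochondrial proteins (Bnip3, Bnip3l, Fam162a and Higd1a) 3 rose, against 4.97% of all genes tested. Pseudogene copies took reads for 3 of the 4. The mitochondrial kinase Ak4, grouped with metabolism above, also has such a copy. With its counts added Ak4 still rose (log2 fold change 0.58, edgeR adjusted p = 0.0169). Bnip3, a receptor for mitophagy, was at 34.5, 38.7 and 53.2 CPM in siControl, 67.2 and 57.7 CPM in siUsf2 1 and 2 and 89.6 CPM in the library labelled siUsf2 3. It rose by 0.55 in the 5 libraries (SE 0.15, edgeR adjusted p = 0.0237). With the counts of its 4 pseudogenes added, siControl held 70.7, 70.9 and 84.2 CPM, siUsf2 1 and 2 117 and 103 CPM and the library labelled siUsf2 3 89.6 CPM, still without overlap (log2 fold change 0.53, edgeR adjusted p = 2.05e-04). As deposited, the call ended without siControl 1 or siControl 2 (adjusted p = 0.0799 and 0.0806).

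Bnip3l, also a mitophagy receptor, was at 93.4, 101 and 108 CPM in siControl, 124 and 128 CPM in siUsf2 1 and 2 and 147 CPM in the library labelled siUsf2 3. It rose by 0.31 (SE 0.09, edgeR adjusted p = 0.0249). Its call ended without siControl 1, siControl 2, siUsf2 1 or siUsf2 2 (adjusted p = 0.151, 0.0579, 0.118 and 0.234). With its pseudogene added, the library labelled siUsf2 3 held 157 CPM, within the siControl range of 155 to 163 CPM, while siUsf2 1 and 2 held 192 and 191 CPM (log2 fold change 0.24, edgeR adjusted p = 0.0484).

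Fam162a, a small mitochondrial protein induced by hypoxia, was at 11.3, 13.1 and 12.8 CPM in siControl, 21.2 and 17.7 CPM in siUsf2 1 and 2 and 96.1 CPM in the library labelled siUsf2 3 (95% Poisson interval 85.9 to 107). That last value is far above every other library, no pseudogene copy was matched to the gene, and its cause was not tested. Fam162a and Gys1 overlap the genes Wdr5b and Ruvbl2, and Ankrd37 overlaps Ufsp2 on the opposite strand, so their counts are uncertain. Without that library Fam162a rose by 0.64 (SE 0.15, edgeR adjusted p = 0.00556), a call that ended without siControl 1 or siUsf2 1 (adjusted p = 0.0505 and 0.164). Higd1a, a partner of the respiratory chain, was at 4.39, 4.37 and 3.61 CPM in siControl, 4.49 and 6.29 CPM in siUsf2 1 and 2 and 19.3 CPM in the library labelled siUsf2 3. With its pseudogene added, it held 20.1, 22.7 and 14.4 CPM, 19.3 and 19.4 CPM, and 19.3 CPM, with overlapping groups and a log2 fold change of 0.01 (edgeR adjusted p = 0.982).

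Ndrg1, a stress-response protein long used as a hypoxia marker (ENSMUSG00000005125), had the smallest p of all members. It was at 69.2, 69.2 and 63.4 CPM in siControl, 119 and 112 CPM in siUsf2 1 and 2 and 161 CPM in the library labelled siUsf2 3, and rose by 0.77 (SE 0.09, edgeR adjusted p = 2.81e-07). Ankrd37, an ankyrin-repeat protein, was at 0.937 to 1.47 CPM in siControl and 2.01 to 2.15 CPM in all siUsf2 libraries, without overlap, but such low counts gave a wide interval (95% interval of the log2 fold change -0.15 to 1.58). Hilpda, a lipid-droplet protein, overlapped between groups (log2 fold change -0.08, 95% interval -0.42 to 0.26).

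Neither histone demethylase of the list passed. Kdm3a was at 92.3, 96.3 and 99.0 CPM in siControl, 100 and 90.5 CPM in siUsf2 1 and 2 and 84.6 CPM in the library labelled siUsf2 3. Kdm4b was at 70.9, 63.0 and 55.6 CPM, 59.6 and 57.5 CPM, and 67.7 CPM. For both the groups overlapped, with 95% intervals of the log2 fold change of -0.20 to 0.17 and -0.33 to 0.09, narrow enough to leave out a change of the size seen in Ndrg1 or Apln.

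**Figure D3:**
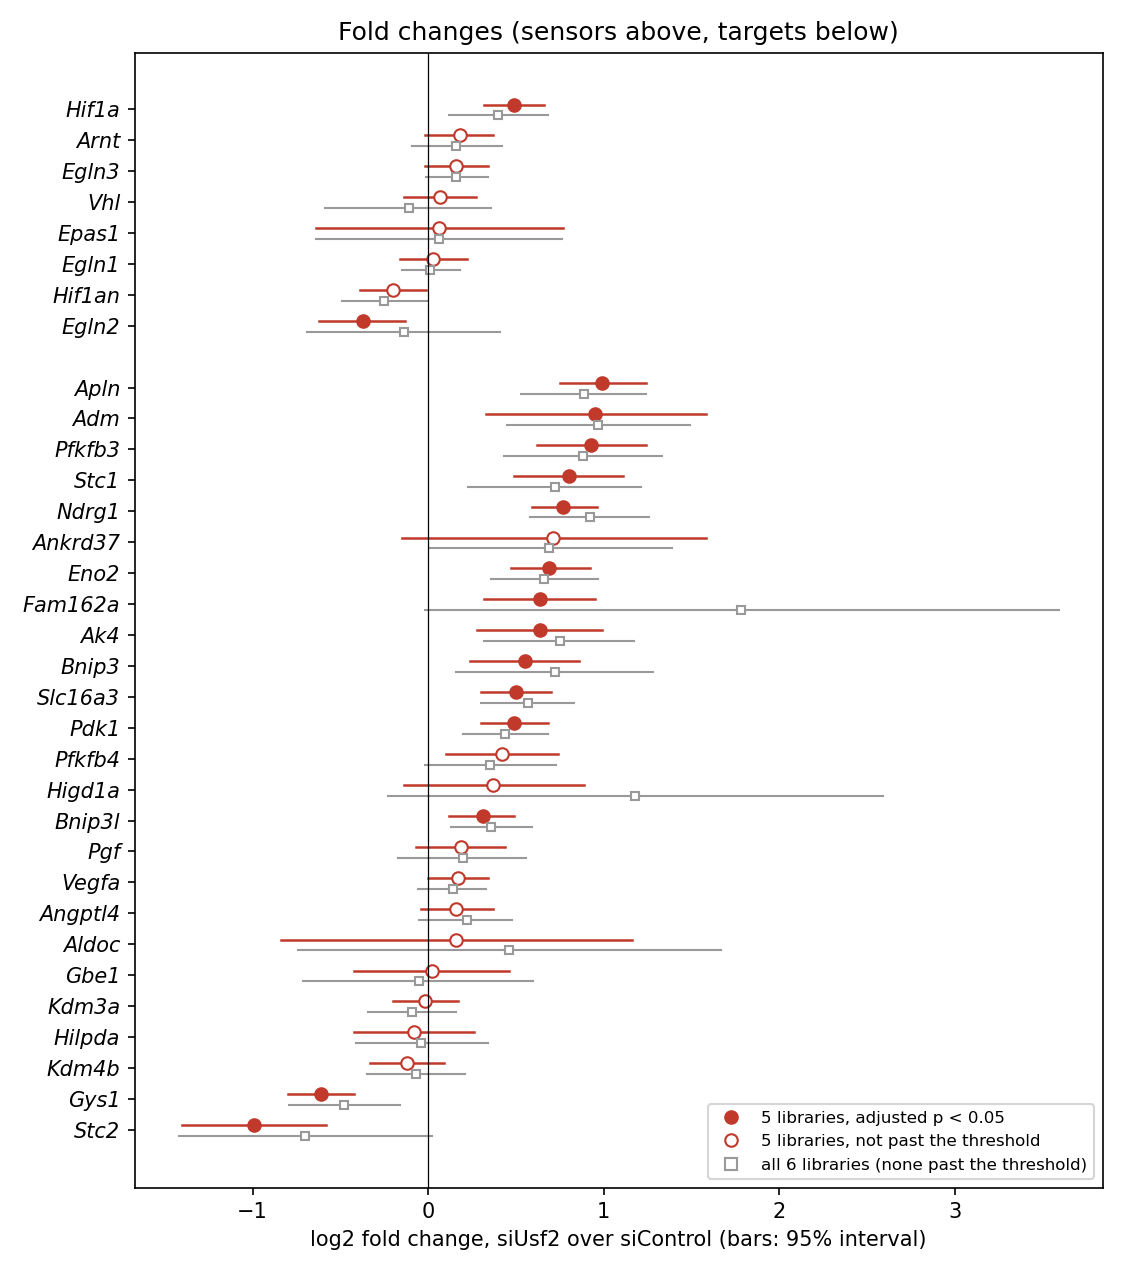
Log2 fold change of siUsf2 over siControl with its 95% interval, for the 8 sensors (upper block) and 25 targets (lower block). Red circles are the 5 libraries, filled where the edgeR adjusted p was below 0.05, and grey squares are all 6 libraries. The 12 filled targets to the right range from 0.31 (Bnip3l) to 0.99 (Apln), and Gys1 and Stc2 lie to the left at -0.61 and -0.99.

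With the library labelled siUsf2 3 included, no member passed the edgeR test. Among 16662 genes, 0% rose and 0.0420% fell. At an unadjusted p below 0.05 stood 1 of the 8 sensors and 13 of the 25 targets, against 10.5% of all genes (1753 of 16662). DESeq2 called 8 targets higher (Ndrg1, Apln, Pfkfb3, Eno2, Pdk1, Adm, Slc16a3 and Ak4), and limma-voom 0. Without a filter on low counts edgeR called Ndrg1 (adjusted p = 0.0322), with 12 genes higher and 104 lower in all. With pseudogene counts added, edgeR called Ndrg1, Apln and Eno2 (adjusted p = 0.0194, 0.0213 and 0.0469), with 50 genes higher and 156 lower in all. The common biological coefficient of variation was 40.0% with all 6 libraries and 9.25% with 5. The sizes of change were of the same order, with a median target at 0.46 and Ndrg1, Apln, Pfkfb3 and Hif1a at 0.92 (SE 0.14), 0.89 (SE 0.14), 0.88 (SE 0.18) and 0.40 (SE 0.11). Fam162a and Higd1a moved the most, to 1.78 and 1.18, and in both the library labelled siUsf2 3 was far above the rest.

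By ranges, 16 of the 25 targets and 2 of the 8 sensors (Hif1a and Egln3) had all 3 siUsf2 libraries above every siControl library, against 11.4% of all genes. Below every siControl library in all 3 lay 1 target (Gys1) and 1 sensor (Hif1an), against 11.2%. With pseudogene counts added, 14 targets had all 3 above (10.9% of all genes), and with TMM scaling 15 (9.64%). Ranges leave out counting error. For Pfkfb4 the Poisson interval of the library labelled siUsf2 3 was 11.6 to 20.3 CPM, with siControl up to 14.1 CPM. For Ankrd37 it was 0.824 to 4.22 CPM, with siControl up to 1.47 CPM. In the library labelled siUsf2 3 alone, 19 targets lay above and 2 below, but 39.6% of all genes lay above and 42.1% below there. With TMM scaling 17 targets lay above and 2 below, against 34.6% and 46.7% of all genes.

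The members covered a wide range of levels. Per exon length, as TPM computed from the counts (reads over exon length, scaled to a fixed total), Vegfa stood highest in siControl with 208 ± 11.9 TPM, then Hif1a with 133 ± 10.4 TPM and Egln3 with 99.7 ± 2.47 TPM (SD, n = 3 each), each apart from the next by more than its spread. The choice of length matters, and with the longest transcript in place of all exons 21 of the 33 levels moved by more than 1 SD, with Vegfa (230 TPM), Hif1a (148 TPM) and Egln3 (88.7 TPM) still in this order. Further down, Gys1 (47.3 ± 2.55 TPM), Egln1 (46.0 ± 0.586 TPM) and Bnip3 (42.8 ± 10.5 TPM) did not differ beyond their spread. Epas1 (0.984 ± 0.282 TPM) and Aldoc (0.842 ± 0.323 TPM) were lowest, again within their spread. The targets that rose ranged from 2.94 ± 0.241 TPM for Adm to 60.1 ± 4.56 TPM for Bnip3l.

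**Figure D4:**
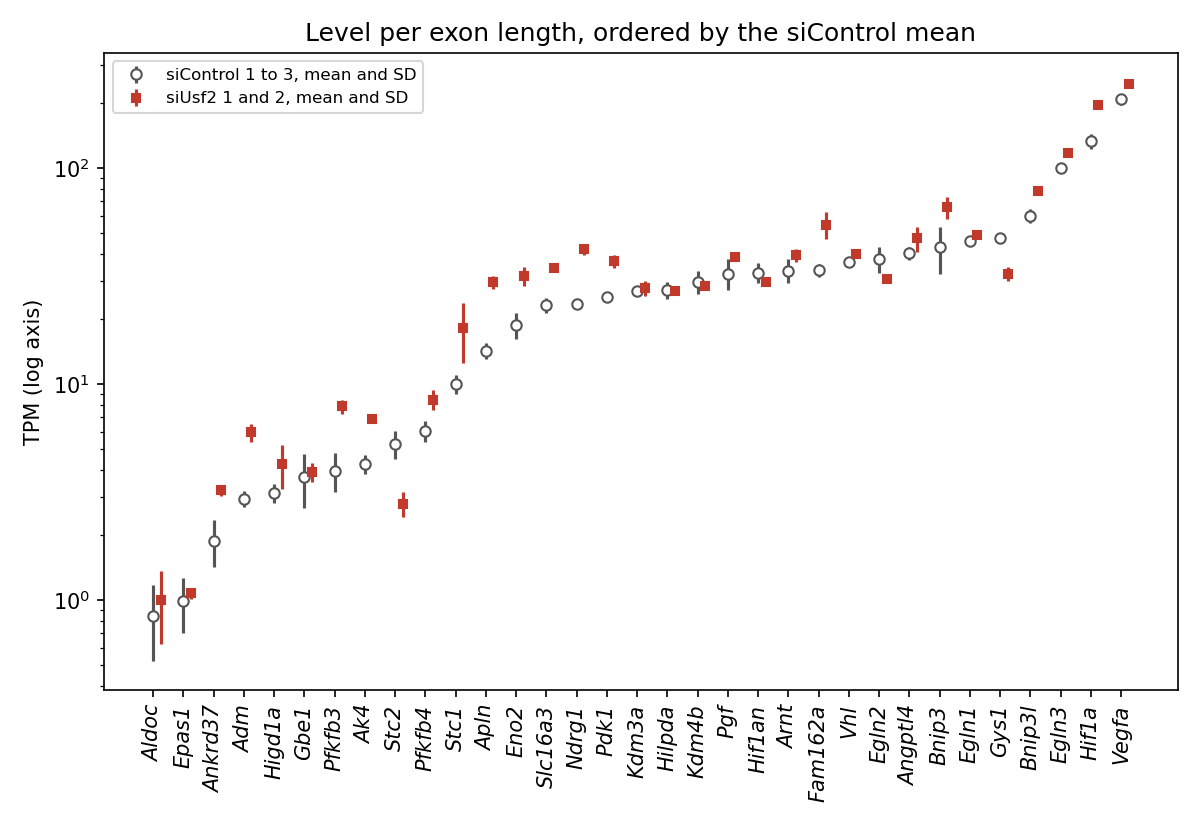
Level per exon length of each of the 33 genes (TPM, log axis), ordered by the siControl mean. Circles are the mean and SD of siControl 1 to 3 and squares those of siUsf2 1 and 2. The levels span from 0.842 TPM (Aldoc) to 208 TPM (Vegfa) in siControl, and the squares lie above the circles for the targets that rose, and below them for Gys1, Stc2 and Egln2.

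The wider pathway was counted from lists of other genes. Of 18 measured partners, cofactors and degradation proteins of HIF, 0 rose and 1 fell in the 5 libraries, and the median was -0.06 (log2). Over all genes tested, 4.97% rose and 6.4% fell, so these counts are near the share over all genes. The member that fell was Hsp90ab1, a chaperone of the alpha subunit, at -0.29 (SE 0.09, edgeR adjusted p = 0.0273). It was at 1115 to 1197 CPM in siControl, 897 and 1002 CPM in siUsf2 1 and 2 and 2482 CPM in the library labelled siUsf2 3. With its pseudogenes added, that library held 2482 CPM against 2290 to 2441 CPM.

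Of 14 core glycolysis genes, which are also HIF targets, 2 rose, 1 fell and 11 did not pass (median 0.10). The shares over all genes tested were 4.97% higher and 6.4% lower. Slc2a1, the basal glucose transporter, was at 186, 181 and 165 CPM in siControl, 258 and 237 CPM in siUsf2 1 and 2 and 283 CPM in the library labelled siUsf2 3. It rose by 0.47 (SE 0.09, edgeR adjusted p = 3.18e-04). Gpi1, the glucose phosphate isomerase, was at 95.6, 90.9 and 76.8 CPM in siControl, 105 and 114 CPM in siUsf2 1 and 2 and 558 CPM in the library labelled siUsf2 3. It was called at 0.30 (edgeR adjusted p = 0.039) but not with its pseudogene added (0.13, adjusted p = 0.321). The levels were then 442 to 487 CPM in siControl, 528 and 513 CPM in siUsf2 1 and 2 and 558 CPM in the library labelled siUsf2 3. Gapdh, the glyceraldehyde phosphate dehydrogenase, was at 59.2, 55.0 and 52.9 CPM in siControl and 45.8 and 42.5 CPM in siUsf2 1 and 2, while the library labelled siUsf2 3 lay above siControl at 70.3 CPM. Without that library it was called lower at -0.35 (edgeR adjusted p = 0.0245), and with 106 pseudogenes that can share its reads its value is uncertain (-0.26 with them added, adjusted p = 0.0378). With them added, the library labelled siUsf2 3 lay below siControl instead, at 791 CPM. Then siControl held 2994 to 3324 CPM, and siUsf2 1 and 2 held 2642 and 2693 CPM.

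Of 36 measured further targets of HIF, 11 rose, 4 fell and 21 did not pass (median 0.14), against 4.97% higher and 6.4% lower over all genes. Car9, the carbonic anhydrase widely used as a hypoxia marker, was at 23.3, 19.2 and 17.3 CPM in siControl, 54.4 and 50.1 CPM in siUsf2 1 and 2 and 53.9 CPM in the library labelled siUsf2 3 (log2 difference 1.38, SE 0.12, edgeR adjusted p = 8.62e-10). Tfrc, the transferrin receptor, fell by 0.83 (SE 0.10, edgeR adjusted p = 7.89e-07), from 73.0 to 89.2 CPM in siControl to 46.5 and 45.3 CPM, with 41.9 CPM in the library labelled siUsf2 3. Ppfia4, a liprin, fell by 1.99 (SE 0.17, edgeR adjusted p = 3.57e-10), from 21.3 to 25.8 CPM to 5.94 and 6.36 CPM, with 11.7 CPM in the library labelled siUsf2 3. Among the others that rose were Nos2, Igfbp3, P4ha2, Plod2, Lox, Ero1l, Mxi1, Egfr and Cp, and the others that fell were Hmox1 and Mt2. None of the genes of these lists passed with all 6 libraries.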

How the data were processed

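Reads per Ensembl gene were deposited as raw whole-number counts. The submitters' processing notes list the mm10 build and the tools HISAT2, featureCounts, FastQC, Trimmomatic and DESeq2, without versions. Annotation and strand setting: not given in the sources used here. Reads of overlapping or antisense genes cannot be told apart. A second deposited table was not used here. Genes were named from GENCODE M21 (GRCm38), which holds 52133 of the 55414 identifiers.

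Groups and replicate numbers came from the sample titles. The test was edgeR 4.0.16 in R 4.3.3 (filterByExpr, TMM, robust quasi-likelihood test, two-sided, Benjamini-Hochberg over all genes tested, called at an adjusted p below 0.05), on 5 and on 6 libraries. Standard errors and 95% intervals derive from its F statistic. CPM are counts over the library total, and TPM divide by exon length first. A count of 0 allows up to 0.169 to 0.879 CPM (3 counts), and Poisson intervals and these limits cover counting error only. Alternatives were RLE and upper-quartile normalization, no filter, DESeq2 1.42.0, limma-voom (limma 3.58.1), a replicate block, each library left out, and pseudogene counts added to parents (minimap2 2.31, at least 90% identity, 50% coverage and 150 bases). For range counts, TMM scaling and pseudogene addition were chosen after seeing the data.

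The members, lists and tests were chosen with earlier results of these data known. Values per library are given for all sensors, the called targets and the 4 most abundant targets not called (Vegfa, Kdm3a, Angptl4 and Kdm4b), and for up to 3 called genes of each other list by p. For Egln1, Hsp90ab1, Tfrc and Ppfia4 the siControl values are given as a range. Pfkfb4 and Higd1a, and the names of further called genes, were added after their values were seen. Promoter windows were RefSeq's (GRCm38.p6). A further called gene of the other lists is counted but not reported here by name.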

Additional observations from a re-analysis of the deposited data

How the results depend on the processing

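In the 5 libraries, 9 of the 16 called members were called in all 12 alternatives, among them 7 that rose. Targets called higher numbered 11 to 12 over the tools, normalizations and filters, and 7 to 12 with a library left out; targets called lower stayed at 2 and sensors called higher at 1 to 2. Sensors called lower (1) went to 0 with upper-quartile normalization, DESeq2 and limma-voom and ranged from 0 to 1 with a library left out. The median target ranged from 0.42 to 0.48 with a library left out. All genes called ranged from 349 to 1596 higher (without siUsf2 1 and siControl 3) and from 519 to 1964 lower.

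Whether replicate numbers pair the samples could not be decided. Correlations of same-numbered deviations from the group means were -0.0738, -0.00469 and -0.0724. The siUsf2 mean included the library labelled siUsf2 3, which shifts the deviations of siUsf2 1 and 2 the opposite way. For siControl 1 the correlations were -0.0738 and -0.0709 with siUsf2 1 and 2, and 0.0744 with the library labelled siUsf2 3. With the replicate block the 5 libraries gave 13 targets and 2 sensors higher (Arnt at 0.26 and Pfkfb4 at 0.41 joined), and 1719 genes higher and 2270 lower. In that fit siControl 3 is alone in its block and adds nothing to the group difference, much as if it were left out. Without siControl 3, 1596 genes were called higher and 1964 lower, with Arnt also at 0.26. With 6 libraries the block gave 0 genes lower and a median target of 0.55.

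With 6 libraries, genes called lower (7) were 4 with RLE, 0 with upper-quartile normalization, 104 without a filter (12 higher, 1 target), 410 with DESeq2 (296 higher, 8 targets), 87 with limma-voom (19 higher) and 156 with pseudogene counts added (50 higher, 3 targets). Leaving out a library gave 0 to 855 genes higher and 0 to 1102 lower, 0 to 12 targets higher and 0 to 2 lower, 0 to 1 sensors in either direction and a median target of 0.42 to 0.61; each upper count is without siUsf2 3.

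Members that did not pass changed sign as follows, and the cause was not tested. In the 5 libraries, Kdm3a was at 0.02 with upper-quartile normalization, 0.01 with the block and -0.08 to 0.04 with a library left out; Epas1 at -0.10 with the block and -0.10 to 0.29 with a library left out; and, with a library left out, Aldoc at -0.25 to 0.53, Gbe1 at -0.17 to 0.22 and Egln1 at -0.01 to 0.06. With 6 libraries, Hilpda was at 0.01 with upper-quartile normalization, Egln1 at -0.01 without a filter and Gbe1 at 0.02 with limma-voom. With a library left out of the 6, Hilpda ranged from -0.11 to 0.04, Egln1 from 0.00 to 0.03, Gbe1 from -0.25 to 0.13, Kdm4b from -0.15 to 0.02, Epas1 from -0.10 to 0.29 and Vhl from -0.24 to 0.07.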
